A study of Mus musculus with 4 samples.

Results

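The mitosis genes described here are 40 genes for mitotic kinases, cyclins, the spindle, the kinetochore, chromosome condensation and cytokinesis. They were given as a fixed list of gene symbols, and each was read from its brightest probe set on the array. All 40 were found among 22305 named genes, with Cdk1 under its older name Cdc2a, and all 40 were bright enough to stay among the 14944 genes that were tested. RNA came from primary rib chondrocytes, the cartilage cells of the rib, of newborn mice at P0.5 on a mixed C57B6/129Sv background, cultured overnight in DMEM with 10% FCS. The Eed cKO group (Eed cKO 1 and Eed cKO 2) carried floxed Eed alleles and the Col2-Cre transgene, in which a mouse Col2a1 promoter drives Cre in cells of the cartilage lineage. The Wt group (Wt 1 and Wt 2) held wild-type chondrocytes of the same age and background, and the study's methods describe its control mice as littermates of the cKO mice. Each group had 2 Affymetrix Mouse Gene ST 1.0 arrays from biological duplicates. Whether the cells of an array came from a single pup or from pooled pups is not stated, and p-values therefore cover only the spread between these samples.

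Eed is a core subunit of Polycomb repressive complex 2 (PRC2), which methylates histone H3 on lysine 27. In mitosis the cyclin B and Cdk1 kinase drives entry, Aurora and Polo-like kinases build the spindle, and kinetochores tie chromosomes to it. A checkpoint holds separation back until every chromosome is attached, and then the anaphase-promoting complex destroys cyclin B and releases separase. Transcripts of these genes are scarce in resting cells and climb in G2 and M phase, so in bulk RNA their level follows both how many cells are dividing and how much RNA each of them holds, and fewer cells of a type and less RNA per cell cannot be told apart.

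Eed itself gave signals of 1057 and 990 on the Eed cKO arrays, against 3597 and 3530 on the Wt arrays. Both Eed cKO arrays lay far below both Wt arrays (log2 difference -1.77, SE 0.07, limma adjusted p = 7.59e-05). Median intensities of the 4 arrays lay between 830 and 837. Col2a1, the main cartilage collagen, read 36621 and 37497 on the Eed cKO arrays, against 37529 and 37633 on the Wt arrays. Sox9, the transcription factor that specifies chondrocytes, read 27695 and 27160 on the Eed cKO arrays, against 28243 and 27918 on the Wt arrays, so both markers were high on every array. X-linked and Y-linked transcripts split the arrays across the groups. Xist, which is transcribed from an inactive X chromosome, read 4845 on Eed cKO 1 and 17196 on Eed cKO 2, against 17820 on Wt 1 and 3634 on Wt 2. The Y-linked Ddx3y read 4324 on Eed cKO 1 and 622 on Eed cKO 2, against 192 on Wt 1 and 4664 on Wt 2.

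Mitosis genes did not differ between the groups by more than the spread of the duplicates, and the duplicates of Eed cKO chondrocytes lay apart. Eed cKO 1 had lower signals than both Wt arrays for nearly all of them and Eed cKO 2 had higher signals. Over the 4 arrays 0 of 40 passed the limma test at an adjusted p of 0.05 in either direction, beside 1439 higher genes (9.63%) and 894 lower genes (5.98%), or 15.6% together, among all those tested. None had an unadjusted p under 0.05, beside 4554 of the tested genes (30.5%), and the smallest adjusted p was 0.316, of Ndc80. The median log2 difference of the 40 genes was -0.02, beside 0.00 over all tested genes, with 25 below 0 (49.9% of the tested genes were below 0) and 15 above. Standard errors of the members ran between 0.07 and 0.19 with a median of 0.13, beside a median of 0.07 over all tested genes, and their 95% intervals reached at most -0.56 on the low side and 0.62 on the high side. Differences inside a gene's own 95% interval remain compatible with its values on 2 arrays a group.

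Read array by array, Eed cKO 1 lay below both Wt arrays and Eed cKO 2 above both for 36 of the 40 genes, an order that 872 of the 14944 tested genes had (5.84%). The opposite order held for Kif18a alone, beside 6.85% of the tested genes. Both Eed cKO arrays lay above both Wt arrays for 1 gene, Ndc80, beside 31.1% of the tested genes, and both lay below for 0, beside 29.1%. Eed cKO 1 was lower than Eed cKO 2 for 39 of 40 genes, beside 44.8% of those tested. When all tested genes were ranked by Eed cKO 1 minus Eed cKO 2, 37 of the 40 were among the lowest 748 (5.01%), and their median rank from the bottom was 191. The median of that difference was -0.43 over the 40 genes and 0.02 over all tested genes. Wt 1 minus Wt 2 had a median of -0.04 over the 40 genes and -0.01 over all, and 39 of the 40 lay within 0.2 of 0. Summed over the 40 genes, the signal was 168736 on Eed cKO 1 and 223620 on Eed cKO 2, against 194110 on Wt 1 and 197716 on Wt 2. Ddx3y was high on Eed cKO 1 and Wt 2, and Xist on Eed cKO 2 and Wt 1, and the part of this split in the mitosis gene values was not tested. Arrays of 1 group have no order, so the gap between the Eed cKO arrays is a description of their spread, without a test.

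**Figure D1:**
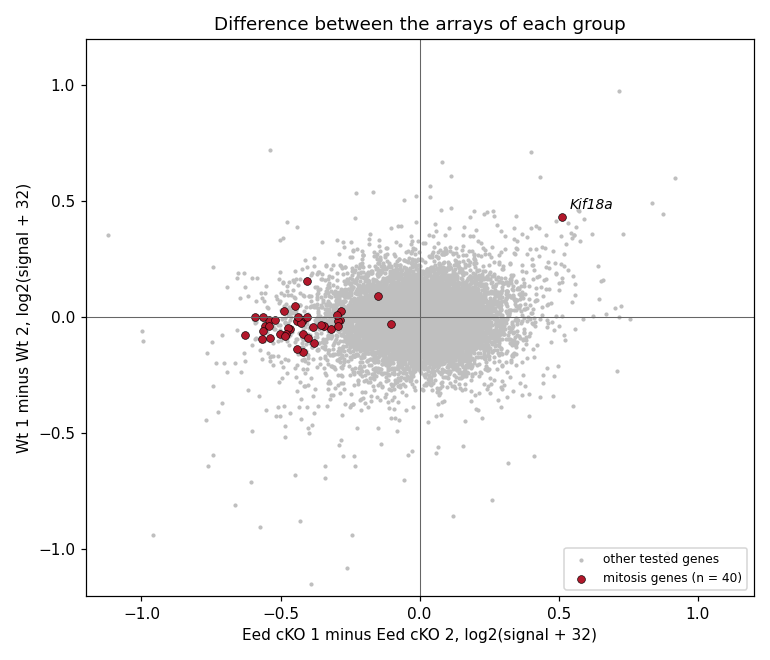
Difference between the 2 arrays of a group for each tested gene, on the log2(signal + 32) scale, with Eed cKO 1 minus Eed cKO 2 across, Wt 1 minus Wt 2 upwards, grey points for the other tested genes and coloured points for the mitosis genes; 9 genes lie outside the axes at 1.2. Most mitosis genes sit around their median of -0.43 across and near 0 upwards, with Kif18a apart from them at 0.51 and 0.43.

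Since the Eed cKO arrays lay on opposite sides, each was also set alone against both Wt arrays. These fits assume that the lone array varies as the others do, which did not hold for the mitosis genes as a set. Taken without its sign, the median gap over the 40 genes was 0.439 between the Eed cKO arrays and 0.0413 between the Wt arrays. Genes past the threshold in these fits are therefore measured against a spread that leaves out the Eed cKO duplicates. No change with Eed loss is concluded from them. With Eed cKO 1 alone, 18 of the 40 genes fell, beside 944 lower genes of all tested (6.32%), and 0 rose, beside 1479 higher (9.9%). Those that fell were Anln, Aurkb, Bub1, Bub1b, Ccna2, Ccnb2, Cdca8, Cdk1, Kif11, Mad2l1, Melk, Mki67, Ncapd2, Nuf2, Nusap1, Prc1, Smc4 and Tpx2. With Eed cKO 2 alone, 18 rose, beside 1562 higher genes (10.5%), and 0 fell, beside 1170 lower (7.83%). Those that rose were Aurka, Aurkb, Bub1b, Ccnb1, Ccnb2, Cdc20, Cenpa, Cenpf, Ect2, Kif20a, Kif23, Kif2c, Melk, Mki67, Ncapg, Plk1, Prc1 and Ube2c. Median differences from the Wt mean were -0.22 for Eed cKO 1 and 0.18 for Eed cKO 2. Aurkb, Bub1b, Ccnb2, Melk, Mki67 and Prc1 are in both lists, in opposite directions. Both fits use the same Wt arrays, and the log2 differences given below for a single Eed cKO array come from these fits.

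**Figure D2:**
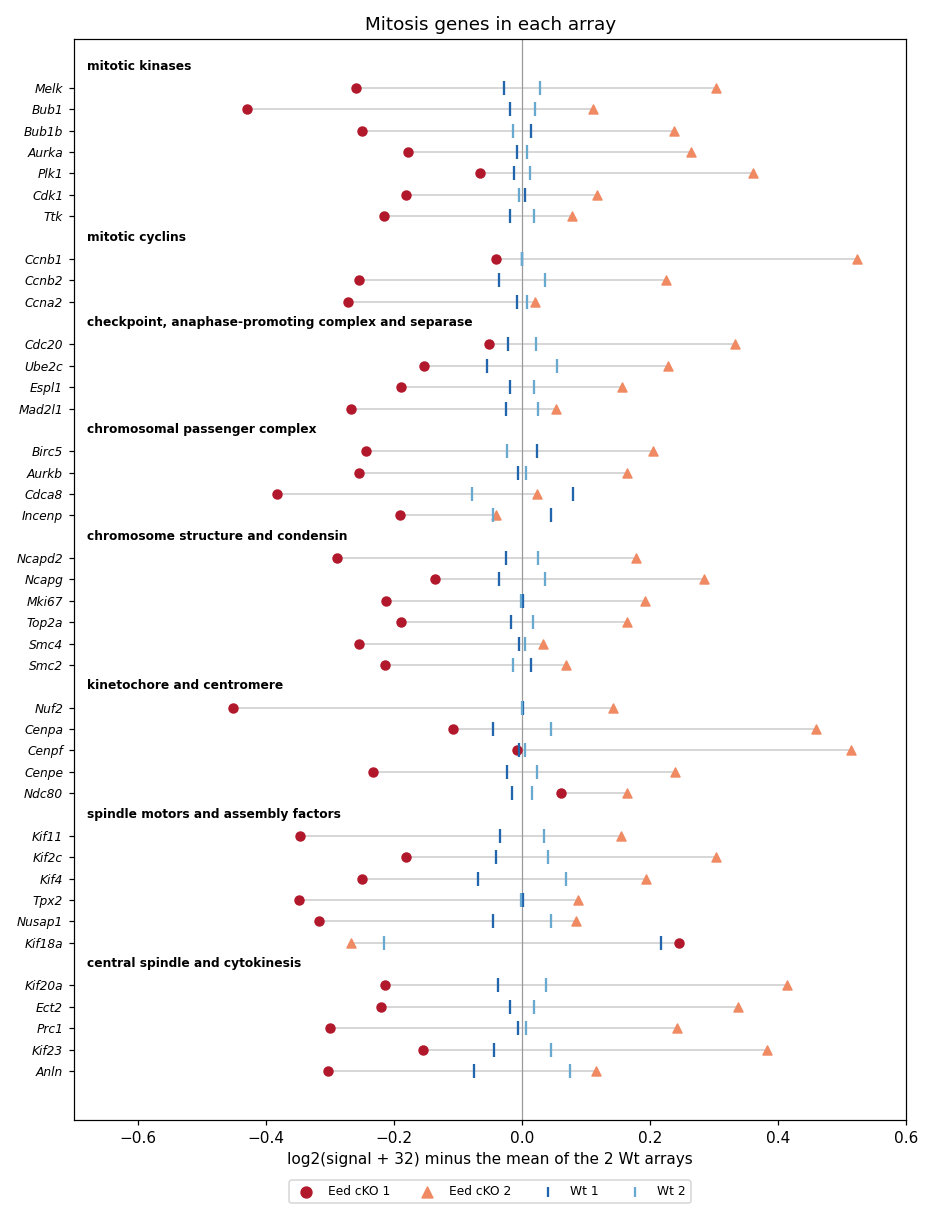
Log2(signal + 32) of each of the 40 mitosis genes on each array minus the mean of the Wt arrays, grouped by role, with 1 point for each of Eed cKO 1, Eed cKO 2, Wt 1 and Wt 2. In 36 rows the Eed cKO 1 point lies left of both Wt points and the Eed cKO 2 point right of both; Incenp, Cdca8, Ndc80 and Kif18a are the exceptions.

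Promoters of genes expressed in G2 and M phase commonly hold a cell cycle genes homology region, read here as TTTGAA or TTCGAA and known to bind the MuvB core complex, near CCAAT boxes, which bind NF-Y. These letters and the E2F-type TTCCCGC were searched on both strands of promoters from RefSeq, build GRCm38.p6, each 300 bases long (250 before the start and 50 from it). The table held 36 promoters of 34 of the 40 genes, since some genes have more than 1 start, and had no entry for Aurkb, Ccna2, Incenp, Kif20a, Smc4 and Tpx2. The windows below show 100 bases before the start and 20 from it for members of several roles that hold TTTGAA and CCAAT there, with 1 of the starts of Prc1, and for Kif18a, the member whose arrays ran the other way. Capitals mark each TTTGAA or CCAAT and their reverse complements TTCAAA and ATTGG.
Cdk1: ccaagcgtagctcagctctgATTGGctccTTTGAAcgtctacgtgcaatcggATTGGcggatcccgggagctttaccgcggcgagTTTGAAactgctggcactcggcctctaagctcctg
Ccnb2: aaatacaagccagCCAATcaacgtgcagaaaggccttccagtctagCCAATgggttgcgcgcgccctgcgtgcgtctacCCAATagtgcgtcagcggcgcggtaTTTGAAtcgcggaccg
Cdc20: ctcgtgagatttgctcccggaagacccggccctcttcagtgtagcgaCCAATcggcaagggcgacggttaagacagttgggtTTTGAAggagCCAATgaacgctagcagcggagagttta
Cdca8: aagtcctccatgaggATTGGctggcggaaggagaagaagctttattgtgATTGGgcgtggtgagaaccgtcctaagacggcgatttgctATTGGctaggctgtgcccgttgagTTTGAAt
Top2a: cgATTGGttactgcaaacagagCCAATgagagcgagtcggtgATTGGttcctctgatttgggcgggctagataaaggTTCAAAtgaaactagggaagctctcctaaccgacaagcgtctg
Cenpf: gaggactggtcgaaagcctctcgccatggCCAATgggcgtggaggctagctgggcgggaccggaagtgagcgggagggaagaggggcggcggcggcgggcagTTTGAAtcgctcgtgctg
Kif11: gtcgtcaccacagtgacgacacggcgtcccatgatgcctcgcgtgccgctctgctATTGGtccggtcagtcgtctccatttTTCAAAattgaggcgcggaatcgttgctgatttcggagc
Prc1: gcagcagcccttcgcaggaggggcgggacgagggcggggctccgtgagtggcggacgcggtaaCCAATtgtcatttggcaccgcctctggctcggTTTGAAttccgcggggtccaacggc
Kif18a: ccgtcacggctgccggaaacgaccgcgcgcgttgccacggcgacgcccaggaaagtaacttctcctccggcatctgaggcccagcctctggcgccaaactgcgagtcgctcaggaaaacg
Each run reads 5′ to 3′ on the gene's own strand. Coordinates are chr10:69352893-69353012 for Cdk1, chr9:70421535-70421654 for Ccnb2, chr4:118437324-118437443 for Cdc20, chr4:124936898-124937017 for Cdca8, chr11:99024170-99024289 for Top2a and chr1:189688067-189688186 for Cenpf on the minus strand, and chr19:37376282-37376401 for Kif11, chr7:80294351-80294470 for Prc1 and chr2:109280638-109280757 for Kif18a on the plus strand, in GRCm38.p6. Cdk1 had 2 TTTGAA in its window, Ccnb2 had its TTTGAA just past the start with CCAAT boxes upstream, and Kif18a had no match.

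TTTGAA occurred in 27 of the 36 mitosis promoters (75.0%), beside 17.9% of all 32851 promoters in the table and 12.0% of the promoters of tested genes. CCAAT occurred in 27 (75.0%), beside 37.4% of all and 37.2% of those of tested genes. The pair was present in 24 (66.7%), beside 6.95% of all and 4.8% of those of tested genes. TTCGAA was found in 3 (8.33%), beside 1.56% of all, and TTCCCGC in 1 (2.78%), beside 4.6% of all. None of the 4 motifs lay in the windows of Birc5, Kif18a, Mad2l1, Melk, Nuf2 and Nusap1 (16.7% of the mitosis promoters, beside 48.2% of all), which says only that these letters are not in those 300 bases. Apart from Kif18a, these genes without a match all had Eed cKO 1 below and Eed cKO 2 above both Wt arrays. Eed cKO 1 minus Eed cKO 2 had a median of -0.43 in the 22 genes with TTTGAA and CCAAT (between -0.57 and -0.28) and of -0.46 in the 12 genes with 1 or neither (between -0.59 and 0.51), with ranges that overlapped. Among the other tested genes, 730 promoters belonged to genes with Eed cKO 1 below and Eed cKO 2 above both Wt arrays. TTTGAA lay in 130 of them (17.8%), beside 11.5% of the promoters of genes without that order. A further list of mitosis genes described below, 41 of which had that order, was left in this comparison where promoters were given. The part of that list in the difference was not tested. A match is a description of letters and not a binding site.

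**Figure D3:**
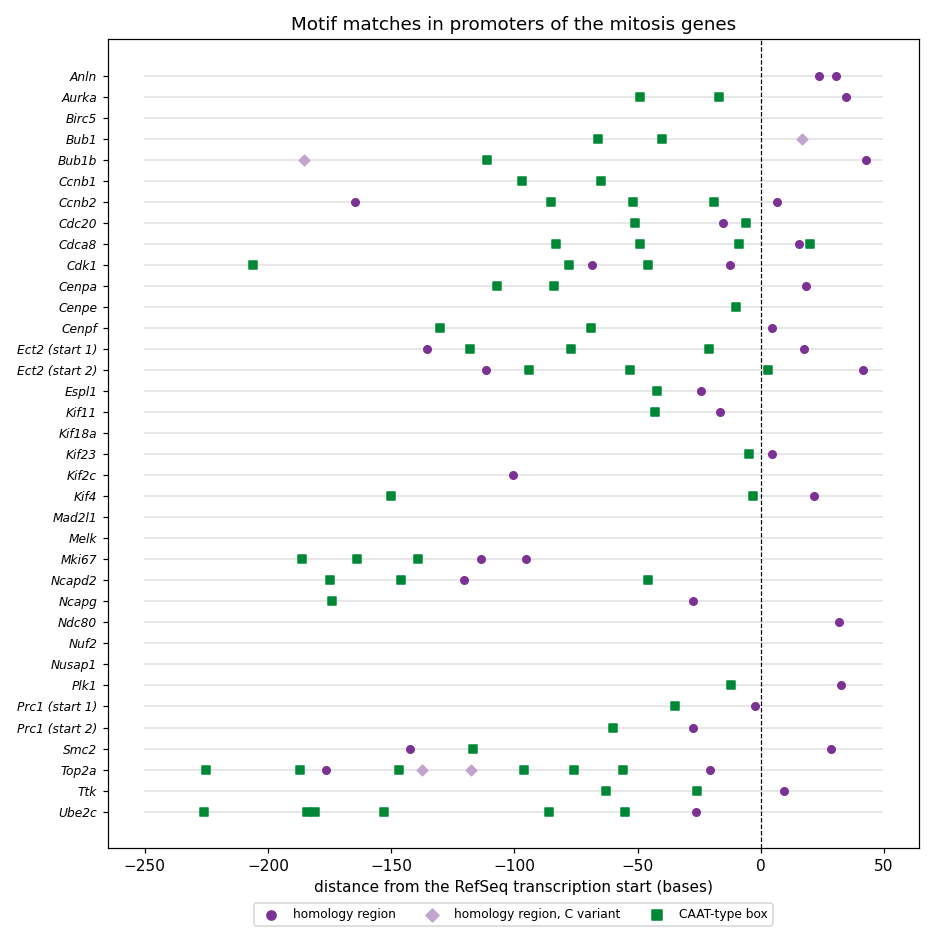
Distance in bases of each TTTGAA (dark circles), TTCGAA (pale diamonds) and CCAAT (squares) match from the RefSeq start for the mitosis genes with a promoter in the table, 1 row a start. CCAAT matches lie mostly upstream of the start and TTTGAA matches mostly nearer to it, while 6 genes have no match.

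Among the 7 mitotic kinases, all had Eed cKO 1 below and Eed cKO 2 above both Wt arrays, with summed signals of 29258 on Eed cKO 1 and 39246 on Eed cKO 2, against 33450 on Wt 1 and 33808 on Wt 2. Cdk1, the kinase that drives entry into mitosis, had signals of 7968 and 9804 on the Eed cKO arrays, against 9069 and 9011 on the Wt arrays. Its Eed cKO arrays lay on either side of a tight Wt pair and its means did not differ beyond the spread (log2 difference -0.03, SE 0.09, adjusted p = 0.841). For Eed cKO 1 alone the difference was -0.18. Bub1, a kinase of the spindle checkpoint, read 3114 and 4547 in Eed cKO chondrocytes and 4150 and 4265 in Wt chondrocytes. Eed cKO 1 was the low array by a wide margin and Eed cKO 2 was slightly above the Wt pair (-0.16, SE 0.16, adjusted p = 0.546, and for Eed cKO 1 alone -0.43). Melk, a kinase of proliferating cells, read 2946 and 4364 in Eed cKO chondrocytes and 3462 and 3603 in Wt chondrocytes. Its arrays lay about evenly to both sides (0.02, SE 0.16, adjusted p = 0.942), with Eed cKO 1 alone at -0.26 and Eed cKO 2 alone at 0.30.

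Plk1, the Polo-like kinase of spindle assembly, read 7288 and 9799 on the Eed cKO arrays, against 7557 and 7693 on the Wt arrays. Here Eed cKO 2 stood apart and Eed cKO 1 lay close to the Wt pair (0.15, SE 0.12, adjusted p = 0.469), with Eed cKO 2 alone at 0.36. Aurka, which ripens the spindle poles, showed the same order at 3335 and 4540 in Eed cKO chondrocytes, against 3755 and 3798 in Wt chondrocytes. The checkpoint kinases Bub1b (2989 and 4201 on Eed cKO arrays, 3594 and 3526 on Wt arrays) and Ttk (1619 and 1991 on Eed cKO arrays, 1861 and 1911 on Wt arrays) did too.

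Mitotic cyclins split by where the Wt pair lay between the Eed cKO arrays. Ccnb1, the cyclin B partner of Cdk1, read 5239 and 7760 in Eed cKO chondrocytes, against 5393 and 5389 in Wt chondrocytes. Eed cKO 2 was the high array and the other 3 lay together (0.24, SE 0.16, adjusted p = 0.359, with a 95% interval between -0.14 and 0.62). Its 3 probe sets behaved alike, with Eed cKO 2 over the Wt mean at ratios of 1.44, 1.44 and 1.43 and Eed cKO 1 at 0.972, 0.963 and 0.947. Ccna2, cyclin A2, which acts from S phase to early mitosis, read 11589 and 14202 in Eed cKO chondrocytes, against 13928 and 14080 in Wt chondrocytes. Here Eed cKO 1 was the low array and the other 3 lay together (-0.13, SE 0.09, adjusted p = 0.374, and for Eed cKO 1 alone -0.27). Ccnb2, the other B-type cyclin, read 6309 and 8809 in Eed cKO chondrocytes and 7346 and 7723 in Wt chondrocytes, about evenly to both sides.

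Regulators of anaphase had the same order in all 4 genes. Cdc20, which activates the anaphase-promoting complex, read 4477 and 5852 on the Eed cKO arrays, against 4573 and 4714 on the Wt arrays, with Eed cKO 2 as the high array (alone 0.33). Ube2c, the ubiquitin-conjugating enzyme of that complex, read 9647 and 12575 on the Eed cKO arrays, against 10327 and 11148 on the Wt arrays. Mad2l1, the checkpoint protein that restrains Cdc20, read 5652 and 7062 on the Eed cKO arrays, against 6690 and 6926 on the Wt arrays, and there Eed cKO 1 was the low array (alone -0.27). The array that stood apart thus differed between Cdc20 and Mad2l1. Espl1, the separase that cuts cohesin, read 1514 and 1931 on the Eed cKO arrays, against 1708 and 1754 on the Wt arrays.

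The chromosomal passenger complex, which corrects wrong attachments and later guides cytokinesis, held 2 of the exceptions to the order. Its kinase Aurkb read 7817 and 10464 in Eed cKO chondrocytes and 9295 and 9370 in Wt chondrocytes, and its survivin subunit Birc5 read 2529 and 3461 in Eed cKO chondrocytes and 3050 and 2950 in Wt chondrocytes. In both, the Eed cKO arrays lay outside the Wt pair on opposite sides. Cdca8, the borealin subunit, had the lowest log2 difference of the 40 genes, with 1770 and 2355 in Eed cKO chondrocytes and 2449 and 2192 in Wt chondrocytes. Eed cKO 2 lay between the Wt arrays and only Eed cKO 1 was outside them (-0.18, SE 0.13, adjusted p = 0.417, and for Eed cKO 1 alone -0.38). Incenp, the scaffold of the complex, read 2234 and 2483 in Eed cKO chondrocytes and 2638 and 2475 in Wt chondrocytes, with Eed cKO 2 again between the Wt arrays.

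Genes of chromosome structure kept the order in all 6 cases, with a summed signal of 29626 on Eed cKO 1 and 38188 on Eed cKO 2, against 34471 on Wt 1 and 34822 on Wt 2. Mki67, the chromosome-coating protein behind the Ki-67 stain of dividing cells, read 7588 and 10053 in Eed cKO chondrocytes, against 8811 and 8790 in Wt chondrocytes. Eed cKO 1 lay 13.8% below the Wt mean and Eed cKO 2 lay 14.2% above it. Their mean therefore nearly met the Wt mean (8820 ± 1743 in Eed cKO chondrocytes and 8801 ± 14.8 in Wt chondrocytes, SD, n = 2 each, log2 difference -0.01, SE 0.12, adjusted p = 0.961, with a 95% interval between -0.29 and 0.26). Top2a, the topoisomerase that untangles sister DNA, read 5944 and 7601 in Eed cKO chondrocytes, against 6702 and 6860 in Wt chondrocytes. It lay as evenly to both sides (-0.01, SE 0.11, adjusted p = 0.95).

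The condensin subunits, which compact chromosomes, differed in which Eed cKO array stood apart. Smc4 read 6198 and 7572 on the Eed cKO arrays and 7376 and 7423 on the Wt arrays, with Eed cKO 1 low and Eed cKO 2 near the Wt pair. Ncapg read 1554 and 2091 on the Eed cKO arrays and 1669 and 1755 on the Wt arrays, with Eed cKO 2 the farther of them from the Wt pair. Ncapd2 read 4264 and 5904 on the Eed cKO arrays and 5128 and 5305 on the Wt arrays. Smc2 read 4079 and 4967 on the Eed cKO arrays and 4785 and 4688 on the Wt arrays.

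The highest log2 difference of the 40 genes lay among the kinetochore genes. It was that of Cenpf, a large protein of the outer kinetochore, which read 1601 and 2311 in Eed cKO chondrocytes, against 1604 and 1616 in Wt chondrocytes. Eed cKO 2 was high and the other 3 arrays were almost level (0.25, SE 0.16, adjusted p = 0.326, with a 95% interval between -0.12 and 0.62, and for Eed cKO 2 alone 0.51). Cenpa, the histone H3 variant that marks the centromere, read 3247 and 4825 in Eed cKO chondrocytes, against 3390 and 3614 in Wt chondrocytes. Eed cKO 2 was again the high array (0.18, SE 0.16, adjusted p = 0.525, and for Eed cKO 2 alone 0.46). Nuf2, a subunit of the microtubule-binding Ndc80 complex, read 1734 and 2632 in Eed cKO chondrocytes, against 2384 and 2382 in Wt chondrocytes. There the array standing apart was Eed cKO 1 (-0.15, SE 0.17, adjusted p = 0.598, and for Eed cKO 1 alone -0.45). Ndc80, its partner in that complex, read 2534 and 2725 in Eed cKO chondrocytes, against 2403 and 2454 in Wt chondrocytes. It was the member with both Eed cKO arrays above both Wt arrays (0.11, SE 0.07, adjusted p = 0.316). Cenpe, the kinetochore motor, read 1736 and 2421 in Eed cKO chondrocytes and 2013 and 2081 in Wt chondrocytes.

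Spindle motors and assembly factors had the order in 5 of 6 cases. Kif11, the motor that pushes spindle poles apart, read 4316 and 6120 on the Eed cKO arrays, against 5365 and 5631 on the Wt arrays (Eed cKO 1 alone -0.35). Tpx2, which activates Aurora A at the spindle, read 4320 and 5859 on the Eed cKO arrays, against 5515 and 5507 on the Wt arrays (Eed cKO 1 alone -0.35). In both the array farther from the Wt pair was Eed cKO 1, as in Nusap1, a microtubule-binding spindle protein with 4269 and 5646 on the Eed cKO arrays, against 5161 and 5498 on the Wt arrays. Kif2c, a motor that takes microtubules apart, read 1449 and 2039 on the Eed cKO arrays, against 1601 and 1695 on the Wt arrays, and Eed cKO 2 lay farther out. Kif4, a chromosome-bound motor, read 1650 and 2254 on the Eed cKO arrays, against 1874 and 2065 on the Wt arrays. Kif18a, which damps chromosome movements, did not follow them, with 3548 and 2479 on the Eed cKO arrays, against 3477 and 2569 on the Wt arrays. Its signal was high on both arrays numbered 1 and low on both numbered 2, with gaps of 0.51 between the Eed cKO arrays and 0.43 between the Wt arrays (-0.01, SE 0.19, adjusted p = 0.977).

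All 5 genes of the central spindle and cytokinesis had the order, with a summed signal of 20670 on Eed cKO 1 and 29920 on Eed cKO 2, against 24006 on Wt 1 and 25256 on Wt 2. Kif20a, the motor that carries the passenger complex to the midzone, had the largest gap of the 40 genes, with 3556 and 5513 in Eed cKO chondrocytes, against 4025 and 4241 in Wt chondrocytes. Eed cKO 2 was 1.55 times Eed cKO 1 and stood farther from the Wt pair (0.10, SE 0.18, adjusted p = 0.753, and for Eed cKO 2 alone 0.41). Kif23, the motor of the centralspindlin complex, read 3003 and 4374 in Eed cKO chondrocytes, against 3245 and 3453 in Wt chondrocytes. Prc1, which bundles midzone microtubules, read 5069 and 7392 in Eed cKO chondrocytes, against 6221 and 6273 in Wt chondrocytes. Ect2, the exchange factor that switches on RhoA at the cleavage furrow, read 3957 and 5835 in Eed cKO chondrocytes, against 4552 and 4676 in Wt chondrocytes. In these 3 genes the Eed cKO arrays lay outside the Wt pair on opposite sides. For Kif23 the low side was the nearer, at -0.16 from the Wt mean for Eed cKO 1 and 0.38 for Eed cKO 2. Anln, the anillin of the contractile ring, read 5085 and 6807 in Eed cKO chondrocytes, against 5962 and 6613 in Wt chondrocytes, with Eed cKO 2 close to the upper Wt array.

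Other genes of mitosis, 80 tested of 82 listed, had the same split in a weaker form. Eed cKO 1 was lower than Eed cKO 2 in 75 of them, beside 44.8% of all tested genes. In 41 (51.25%) Eed cKO 1 lay below and Eed cKO 2 above both Wt arrays, beside 5.84% of all tested genes. Their median gap between the Eed cKO arrays was -0.28, with medians of -0.17 for Eed cKO 1 and 0.10 for Eed cKO 2 against the Wt mean. Cdca3, a cofactor of cell cycle ubiquitin ligases, read 2999 and 4999 on the Eed cKO arrays, against 4198 and 4815 on the Wt arrays, which was the widest gap in this list (-0.73). Between the groups 4 of the 80 rose and 2 fell, beside 9.63% and 5.98% of all tested genes, with a median log2 difference of -0.04. Both Eed cKO arrays lay above both Wt arrays in 9 of the 80 and below both in 11, beside 31.1% and 29.1%.

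Psrc1, a spindle microtubule protein, read 9326 and 8635 in Eed cKO chondrocytes, against 5987 and 5706 in Wt chondrocytes (0.62, SE 0.06, adjusted p = 0.000961). Gtse1, a microtubule protein of G2 and M phase, read 8401 and 8197 in Eed cKO chondrocytes, against 7041 and 7020 in Wt chondrocytes (0.24, SE 0.04, adjusted p = 0.0129). In both genes the Eed cKO arrays were close to each other. Ckap2 (0.47, adjusted p = 0.0396) and Cenpt (0.24, adjusted p = 0.0488) rose too. Oip5, which helps to load Cenpa, read 690 and 745 in Eed cKO chondrocytes, against 924 and 975 in Wt chondrocytes (-0.39, SE 0.08, adjusted p = 0.0224). Pkmyt1, a kinase that holds Cdk1 inactive until mitosis, read 4155 and 4750 in Eed cKO chondrocytes, against 5434 and 5897 in Wt chondrocytes (-0.35, SE 0.08, adjusted p = 0.0271). Both fell.

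**Figure D4:**
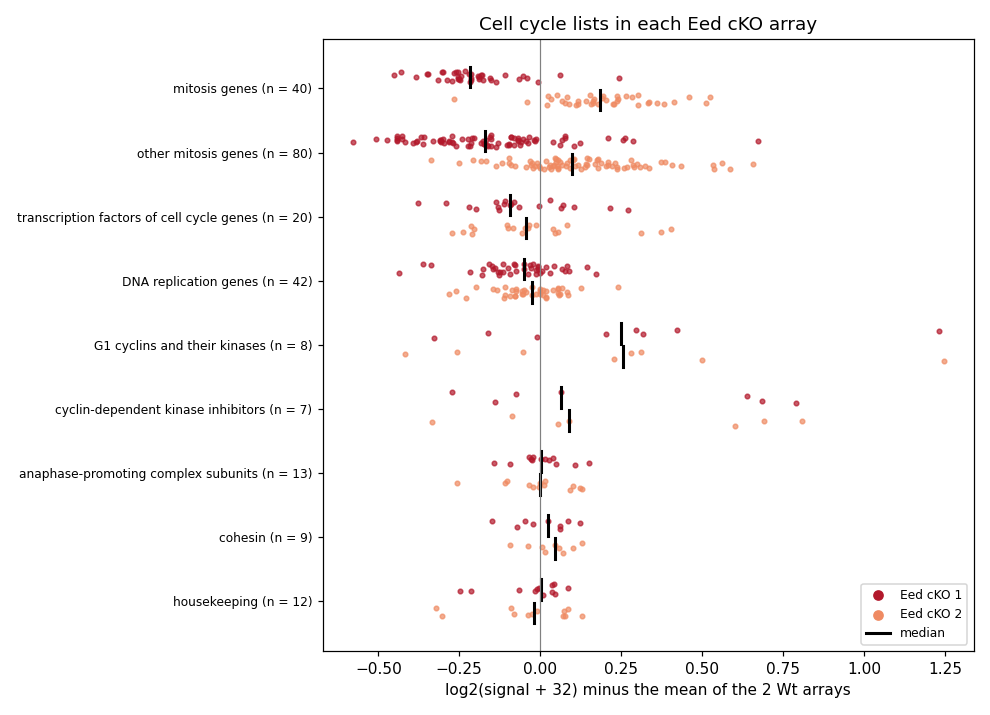
Log2(signal + 32) on Eed cKO 1 (dark) and on Eed cKO 2 (pale) minus the mean of the Wt arrays, 1 point a gene and a bar at the median of each list. The medians of the mitosis genes lie at -0.22 and 0.18 and the other mitosis genes at -0.17 and 0.10, while the medians of the anaphase-promoting complex subunits and the DNA replication genes lie close together.

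Other lists of cell cycle genes had smaller median gaps. Over all tested genes 5.84% had the order of the mitosis genes, 9.63% rose and 5.98% fell. Subunits of the anaphase-promoting complex, the ubiquitin ligase that starts anaphase, had a median gap between the Eed cKO arrays of 0.01 over 13 genes, with 0 in the order of the mitosis genes and 0 called. Cohesin genes, which hold sister chromatids together, had a median gap of -0.04 over 9 genes, also with 0 in that order and 0 called. DNA replication genes had a median gap of -0.02 over 42 genes, with 3 in that order. Eed cKO 1 was the lower array in 28 of these 42 genes, beside 44.8% of all tested genes. It was the lower array in 5 of the 9 cohesin genes and 4 of the 13 subunits of the anaphase-promoting complex. Pcna, the sliding clamp, read 20420 and 19163 in Eed cKO chondrocytes, against 19791 and 19897 in Wt chondrocytes. Between the groups 3 of the 42 fell and 1 rose. Among them Rpa2 (-0.30, adjusted p = 0.0224) and Mcm10 (-0.28, adjusted p = 0.0489) fell and Rrm2 (0.21, adjusted p = 0.0463) rose. Among 20 transcription factors of cell cycle genes 3 had that order. Foxm1, the forkhead activator of G2 and M phase genes, was one of them, with 4386 and 5896 in Eed cKO chondrocytes, against 5651 and 5765 in Wt chondrocytes (-0.17, SE 0.12, adjusted p = 0.422). Mybl2, which binds MuvB in S phase, read 2008 and 2301 in Eed cKO chondrocytes, against 2483 and 2447 in Wt chondrocytes (-0.19, SE 0.08, adjusted p = 0.162). The retinoblastoma gene Rb1 rose (0.34, SE 0.07, adjusted p = 0.0184).

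Of 8 G1 cyclins and their kinases 4 rose (Ccnd1, Ccnd2, Ccnd3 and Cdk6) and 1 fell (Ccne2), and of 7 inhibitors of cyclin-dependent kinases 3 rose (Cdkn1c, Cdkn2a and Cdkn2b) and 1 fell (Cdkn1b). Over all tested genes 9.63% rose and 5.98% fell. Cyclin D1, Ccnd1, read 17063 and 17248 in Eed cKO chondrocytes, against 7632 and 6886 in Wt chondrocytes (1.24, SE 0.05, adjusted p = 8.6e-05). The inhibitor Cdkn1c read 9356 and 9478 in Eed cKO chondrocytes, against 5709 and 5101 in Wt chondrocytes (0.80, SE 0.06, adjusted p = 0.000537). The inhibitor Cdkn2a read 1066 and 1070 in Eed cKO chondrocytes, against 627 and 675 in Wt chondrocytes (0.69, SE 0.08, adjusted p = 0.0024). In these 3 genes neither Eed cKO array stood apart. Among the inhibitors Cdkn2c, which did not pass, had Eed cKO 1 below and Eed cKO 2 above both Wt arrays (5177 and 5804, against 5492 and 5413 on the Wt arrays).

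Marker lists of other cell types gave the following values beside the gap between the Eed cKO arrays. Over all tested genes 9.63% rose, 5.98% fell and 29.1% had both Eed cKO arrays below both Wt arrays. Fibroblast and perichondrium markers summed to 107811 on Eed cKO 1 and 115916 on Eed cKO 2, against 93831 on Wt 1 and 100272 on Wt 2, and 8 of 12 rose and 1 fell between the groups. Their median gap between the Eed cKO arrays was -0.12, in the direction of the mitosis genes. Skeletal muscle markers, 6 tested of 8, summed to 10452 on Eed cKO 1 and 11889 on Eed cKO 2, against 10708 on Wt 1 and 10814 on Wt 2, with a median gap of -0.14, and 3 rose and 1 fell. Between the groups 0 of 7 tested macrophage and granulocyte markers rose and 1 fell, 2 of 7 tested endothelial markers rose and 1 fell, and 0 of 4 tested red cell markers rose and 1 fell. Sums on Eed cKO 1 were higher than on Eed cKO 2 for macrophage and granulocyte markers (11223 and 10053, against 10493 and 10290 on the Wt arrays), endothelial markers (16924 and 16265, against 12649 and 12344 on the Wt arrays) and red cell markers (18287 and 16057, against 17113 and 18389 on the Wt arrays). Bright genes weigh most in such sums, which also hold markers too dim to be tested. Median gaps over the tested markers were 0.01 for macrophage and granulocyte, -0.08 for endothelial and 0.04 for red cell markers. Eed cKO 1 was the lower array in 2 of 7, 5 of 7 and 2 of 4 of them. It was also the lower array in 9 of 12 fibroblast and perichondrium markers and 5 of 6 skeletal muscle markers, beside 44.8% of all tested genes. In chondrocyte markers and in housekeeping genes it was the lower array in 5 of 12 each. The order of the mitosis genes held for 2 of the 6 muscle markers and 1 of the 12 fibroblast and perichondrium markers, beside 5.84% of all tested genes. Chondrocyte markers summed to 283017 and 282660 on the Eed cKO arrays, against 290396 and 300336 on the Wt arrays. Of these 12 markers 3 fell (Acan, Cnmd and Col10a1) and 1 rose (Matn1), and 10 had both Eed cKO arrays below both Wt arrays. Housekeeping genes summed to 273407 and 274814 on the Eed cKO arrays, against 274642 and 276568 on the Wt arrays, and 2 of 12 fell. Their part in the mitosis gene values was not tested.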

How the data were processed

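RNA of 4 samples (2 Eed cKO, 2 Wt) was read on Affymetrix Mouse Gene ST 1.0 arrays, with each sample's group and number read from its title. The authors deposited intensities on a linear scale for 35512 probe sets, 1 column per array, in a pair of tables whose values were identical (largest difference 0.0). A supplementary sheet of the study is named for dChip signals, and the background correction, normalization and annotation behind the values were not given in the sources used here. Array medians already lay within a narrow range, so no further normalization was applied. The 3 ratio columns hold the authors' own comparison of Eed cKO with Wt and were not used. Arrays have no read depth, and their number limits the precision.

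Gene names were updated through RefSeq genes of GRCm38.p6 (18664 probe sets by accession, 2420 by symbol, 1957 by an older name, 2134 kept the name in the file, 10337 had none). Each gene was read from its probe set of highest mean, and genes whose mean lay below the 33rd percentile (signal 625.6) were not tested. Eed cKO minus Wt was tested, two-sided, in R 4.3.3 by limma 3.58.1 (lmFit, eBayes with an intensity trend) after taking log2(intensity + 32), with group as the single term and 2 residual degrees of freedom (6.911 after moderation). The Benjamini-Hochberg adjustment covered the 14944 genes tested, and the threshold was 0.05. The added 32 makes log2 differences of dim genes smaller than they are. The methods name an unpaired Student test, which was run as an alternative. The fit was tested on simulated data with known changes. The noise there was drawn for each gene apart, so it does not cover genes that move together between duplicates, as most mitosis genes did.

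The mitosis genes, the other lists and the tests were chosen with earlier results of these data known, including that the Eed cKO arrays may differ in these genes. Values of each array were set to be given for members past the threshold, the 3 members of largest difference in each direction, the 5 with the largest gap between the Eed cKO arrays, and Mki67, Top2a, Ccnb1 and Cdk1; the remaining members were added for completeness. Of other lists, at most 4 genes with the smallest p and all genes where 5 or fewer were called were to be named, and Ckap2, Cenpt, Cdca3, Foxm1 and Pcna were named after their values were seen; 1 gene that the rule names is not reported here. The alternatives were other pseudocounts, filters, probe set rules, quantile normalization, no intensity trend, a replicate block and leaving out each array.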

Additional observations from a re-analysis of the deposited data

How the results depend on the processing

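In 9 settings that kept all 4 arrays (a smaller and a larger pseudocount, no filter and a 50th percentile filter, the mean of a gene's probe sets, quantile normalization, no intensity trend, the methods' t-test and the replicate block), 0 of the 40 mitosis genes passed the threshold, and the smallest adjusted p was 0.1994. All 40 kept the sign of their difference, except that quantile normalization turned Cenpe to -0.053 and Melk to -0.018. Over all tested genes, the methods' t-test gave 1748 higher and 1201 lower genes at their unadjusted threshold, with 0 mitosis genes, and 2 higher and 2 lower genes after Benjamini-Hochberg, and dropping the intensity trend left 574 lower. The deviations of samples with the same replicate number had a correlation of -0.06 over 14944 genes, and although the methods name littermate controls, no label says which arrays share a litter, so the samples were not treated as pairs. The replicate block gave 1539 higher and 972 lower genes and changed no call among the mitosis genes. The count of 36 genes with Eed cKO 1 below and Eed cKO 2 above both Wt arrays, looked at again under settings added after seeing the data, was 36 after quantile normalization (5.99% of tested genes), 36 with the mean of probe sets (5.88%), 38 without Wt 1 (10.8%) and 36 without Wt 2 (10.3%).

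Leaving out 1 array at a time moved the mitosis genes called between 0 and 18 higher and between 0 and 18 lower, and all tested genes between 928 and 1562 higher and between 385 and 1170 lower; without Eed cKO 1 the 18 were higher and without Eed cKO 2 the 18 were lower. Each of these fits leaves 1 array in a group, so its calls do not cover the spread within that group. The median over the 40 genes moved between -0.22 without Eed cKO 2 and 0.18 without Eed cKO 1. Incenp and Ndc80 kept their sign. For the others the lowest and highest log2 differences with 1 array left out were, among kinases, -0.18 and 0.12 for Cdk1, -0.065 and 0.36 for Plk1, -0.18 and 0.26 for Aurka, -0.43 and 0.11 for Bub1, -0.25 and 0.24 for Bub1b, -0.22 and 0.077 for Ttk, and -0.26 and 0.30 for Melk. Among cyclins and regulators of anaphase they were -0.27 and 0.020 for Ccna2, -0.041 and 0.52 for Ccnb1, -0.25 and 0.23 for Ccnb2, -0.052 and 0.33 for Cdc20, -0.15 and 0.23 for Ube2c, -0.27 and 0.053 for Mad2l1, and -0.19 and 0.16 for Espl1. Among passenger, chromosome and kinetochore genes they were -0.25 and 0.16 for Aurkb, -0.24 and 0.20 for Birc5, -0.38 and 0.023 for Cdca8, -0.21 and 0.19 for Mki67, -0.19 and 0.16 for Top2a, -0.21 and 0.068 for Smc2, -0.25 and 0.033 for Smc4, -0.14 and 0.28 for Ncapg, -0.29 and 0.18 for Ncapd2, -0.45 and 0.14 for Nuf2, -0.11 and 0.46 for Cenpa, -0.23 and 0.24 for Cenpe, and -0.0076 and 0.51 for Cenpf. Among spindle and cytokinesis genes they were -0.35 and 0.15 for Kif11, -0.18 and 0.30 for Kif2c, -0.25 and 0.19 for Kif4, -0.27 and 0.24 for Kif18a, -0.35 and 0.088 for Tpx2, -0.32 and 0.084 for Nusap1, -0.21 and 0.41 for Kif20a, -0.16 and 0.38 for Kif23, -0.30 and 0.24 for Prc1, -0.22 and 0.34 for Ect2, and -0.30 and 0.12 for Anln. The cause of the gap between the Eed cKO arrays was not tested.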

Other observations

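Some genes outside the cell cycle also had a higher signal on Eed cKO 2 than on Eed cKO 1, but with both arrays above the Wt pair, and they are named after their values were seen. Interferon-induced genes were among them. Ifit1, an antiviral RNA-binding protein, read 4213 and 6477 on the Eed cKO arrays, against 944 and 1182 on the Wt arrays (log2 difference 2.27, SE 0.20, limma adjusted p = 0.00082). Oasl2, an antiviral protein of the oligoadenylate synthetase family, read 4254 and 6759 on the Eed cKO arrays, against 1829 and 2099 on the Wt arrays (1.44, SE 0.19, adjusted p = 0.00426). Ibsp, bone sialoprotein, read 5213 and 7880 on the Eed cKO arrays, against 1064 and 1139 on the Wt arrays (2.51, SE 0.17, adjusted p = 0.000351). In these 3 genes both Eed cKO arrays lay above both Wt arrays, as in 31.1% of all tested genes. Nearly all mitosis genes instead had the Wt pair between the Eed cKO arrays. That order was not confined to them, since 836 of the other 14904 tested genes (5.61%) also had Eed cKO 1 below and Eed cKO 2 above both Wt arrays. Defb35, also named after its values were seen, read 1198 and 2423 on the Eed cKO arrays, against 1658 and 1726 on the Wt arrays.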
